A study of Rattus norvegicus with 18 samples.

Results

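The genes of complement, its regulators, and its receptors were examined in the lungs of rats exposed to the multiwalled carbon nanotube (MWCNT) MWNT-7. The members were chosen by function, with earlier results of these data known. They were a list of 37 gene symbols covering the classical, alternative, and lectin arms, the terminal components, the regulators, and the receptors. Of these, 34 were found by symbol among the 22081 genes of the deposited files, and the symbols *C1ra*, *Mbl2*, and *Cfb* matched no entry.

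Complement is a cascade of plasma proteins that tags particles and cells and recruits phagocytes. The classical arm starts when C1q, with the proteases C1r and C1s, binds its target and cleaves C4 and C2; the lectin arm does so through collectins or ficolins with the MASP proteases; the alternative arm amplifies the deposit of cleaved C3 through factor B and factor D and is stabilized by properdin. All arms meet at C3, its cleavage leads on to C5 and to the membrane attack complex of C5b, C6, C7, C8, and C9, and the small fragments released from C3 and C5 attract and activate leukocytes through their receptors. In the lung, macrophages are a known source of C1q, and alveolar epithelial cells are known to make C3.

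RNA was taken from part of the accessory lobe of male F344 rats. Control rats received the vehicle alone, saline with Tween 80, and MWCNT-treated rats received MWNT-7 at 0.5 mg/kg in it. Both were given by intratracheal instillation every 4 weeks from 9 weeks of age. The 18 rats formed 6 groups of 3, a control and an MWCNT-treated group at each of Years 0.5, 1, and 2 of the experiment, and tissue holding visible tumor nodules had been left out. The sequenced rats were a subset of those sampled. Treatment time and age rose together, and the lung tissue was a mixture of all its cell types.

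Total counts per rat ranged from 13297643 to 21130757. TPM (transcript abundance per length, set to the same total in every rat) is used for levels, and the log2 fold change of MWCNT-treated against control rats, fitted to the counts of the 6 rats of a time point with the quasi-likelihood test of edgeR, is used for differences. A gene was called a DEG when its FDR, the Benjamini-Hochberg adjusted p over all genes tested, was below 0.05 and its log2 fold change was above 1 or below -1. In these bulk samples, fewer cells of a type and less RNA per cell cannot be told apart. The 10 macrophage markers examined beside the results summed to 364–469 TPM in the control rats and to 921–1320 TPM in the MWCNT-treated rats, and 7, 6, and 9 of the 10 were called higher at Years 0.5, 1, and 2; the part of macrophages in the changes of the complement genes was not tested. The lung identity of the tissue was plain from *Sftpc*, the surfactant protein C gene of alveolar type 2 cells, whose mean level was at least 19400 TPM in each of the 6 groups.

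The promoters of *C3*, *C1qa*, *C4a*, and *C4b* are shown because *C3* is the component at which the arms meet, *C1qa* starts the classical arm, and the C4 genes are near-identical copies; all 4 were called higher at all time points. Each line gives the 250 bases before the annotated start on the strand of the gene, from RefSeq (GRCr8), a later build than that of the deposited counts. Capitals mark the only match to a searched motif, an interferon-gamma activated site (TTCNNNGAA) in the *C1qa* window, 90 bases before the start.

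C3: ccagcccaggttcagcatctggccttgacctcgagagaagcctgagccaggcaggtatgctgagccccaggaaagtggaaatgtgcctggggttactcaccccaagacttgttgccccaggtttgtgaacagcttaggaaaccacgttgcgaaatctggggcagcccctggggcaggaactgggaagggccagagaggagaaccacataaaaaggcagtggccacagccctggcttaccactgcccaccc
C1qa: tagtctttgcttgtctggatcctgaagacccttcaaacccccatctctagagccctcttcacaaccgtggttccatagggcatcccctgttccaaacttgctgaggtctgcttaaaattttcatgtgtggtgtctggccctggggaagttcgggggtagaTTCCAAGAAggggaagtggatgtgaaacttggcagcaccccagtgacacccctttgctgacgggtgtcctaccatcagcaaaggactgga
C4a: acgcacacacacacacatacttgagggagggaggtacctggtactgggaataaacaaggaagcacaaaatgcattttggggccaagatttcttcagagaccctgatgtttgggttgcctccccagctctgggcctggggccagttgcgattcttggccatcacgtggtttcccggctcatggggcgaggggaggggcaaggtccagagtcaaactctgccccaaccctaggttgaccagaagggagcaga
C4b: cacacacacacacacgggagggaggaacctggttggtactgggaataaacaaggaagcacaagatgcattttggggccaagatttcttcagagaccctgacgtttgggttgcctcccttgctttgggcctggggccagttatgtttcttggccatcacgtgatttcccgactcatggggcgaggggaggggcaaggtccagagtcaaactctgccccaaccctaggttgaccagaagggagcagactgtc

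These windows lie at chr9:2201340-2201589 (minus strand), chr5:154419934-154420183 (minus strand), chr20:4010107-4010356 (plus strand), and chr20:4201729-4201978 (plus strand), in the order shown. The windows carry the RefSeq names of GRCr8, and whether its *C4a* and *C4b* are the entries of those names in the deposited counts is not known here. The *C4a* and *C4b* windows were identical at 227 of 255 aligned columns (89%), whereas the *C3* and *C1qa* windows were identical at 149 of 290 (51.4%). In the promoter table, 23 of the 34 members had an entry. The interferon-gamma activated site, searched on both strands, was found in 5 of these 23 (21.7%) and in 7.67% of all 33469 promoters of the table. The core of the interferon-stimulated response element (GAAA and GAAA with 2 bases between) and the NF-kB site (GGGA and TTCC with 2 bases between) were found in none of the 23, against 3.41% and 1.08% of all promoters, so that no matches overlapped. Among the 15 genes called higher at all time points, 11 had an entry, and the interferon-gamma activated site was in 2 of these (18.2%), *C1qa* and *C4bpb*. The remaining matches were in *C8a*, which was not tested, and in *C5ar2* and *Vsig4*, which were not called at any time point. For members the first entry of each symbol was searched, and for the share of all promoters every entry.

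Of the 34 genes found, 32 passed the filter on low counts at each time point. The other two were *C8a*, with at most 1 count in a rat, and *C8b*, with no count in any rat. At Year 0.5, 15 of the 32 were called higher and 1 lower, where 9.1% of all genes tested were called, 6.07% higher and 3.03% lower. Called higher at Year 1 were 17, and lower 1, against 10.2% of all genes called, 6.13% higher and 4.09% lower. Year 2 again gave 17 higher and 1 lower, while the background had risen to 16.4%, 8.17% higher and 8.22% lower. The median log2 fold change of the 32 genes was 0.93, 1.21, and 1.39 at Years 0.5, 1, and 2, and that of all genes tested was -0.02, 0, and -0.01.

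The genes called higher at all time points numbered 15, against 4.22% of the 14108 genes tested at all of them. They were *C1qa*, *C1qb*, *C1qc*, *C2*, *C4a*, and *C4b* of the classical arm, *C3*, the terminal genes *C5* and *C6*, the regulators *Serping1*, *C4bpa*, *C4bpb*, and *Cfi*, and the receptors *C3ar1* and *C5ar1*. *C1s* and *Cfd* were called higher at Years 1 and 2, and *Masp1* was lower at all time points, where 1.18% of all genes were. With the FDR alone, 22, 25, and 26 genes changed in either direction, against 38.8%, 41.2%, and 49.2% of all genes. On the TPM scale, the control and MWCNT-treated rats did not overlap for 23, 27, and 26 of the 32 genes, where 57.7%, 61.7%, and 63.8% of all genes did not. The MWCNT-treated rats were the higher ones for 20, 23, and 23 of them, where they were for 17%, 15%, and 18.1% of all genes. These shares depend on the scale. The median log2 fold change of all genes tested was -0.15, -0.21, and -0.2 on the TPM scale, against -0.02, 0, and -0.01 in the fit to the counts.

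**Figure D1:**
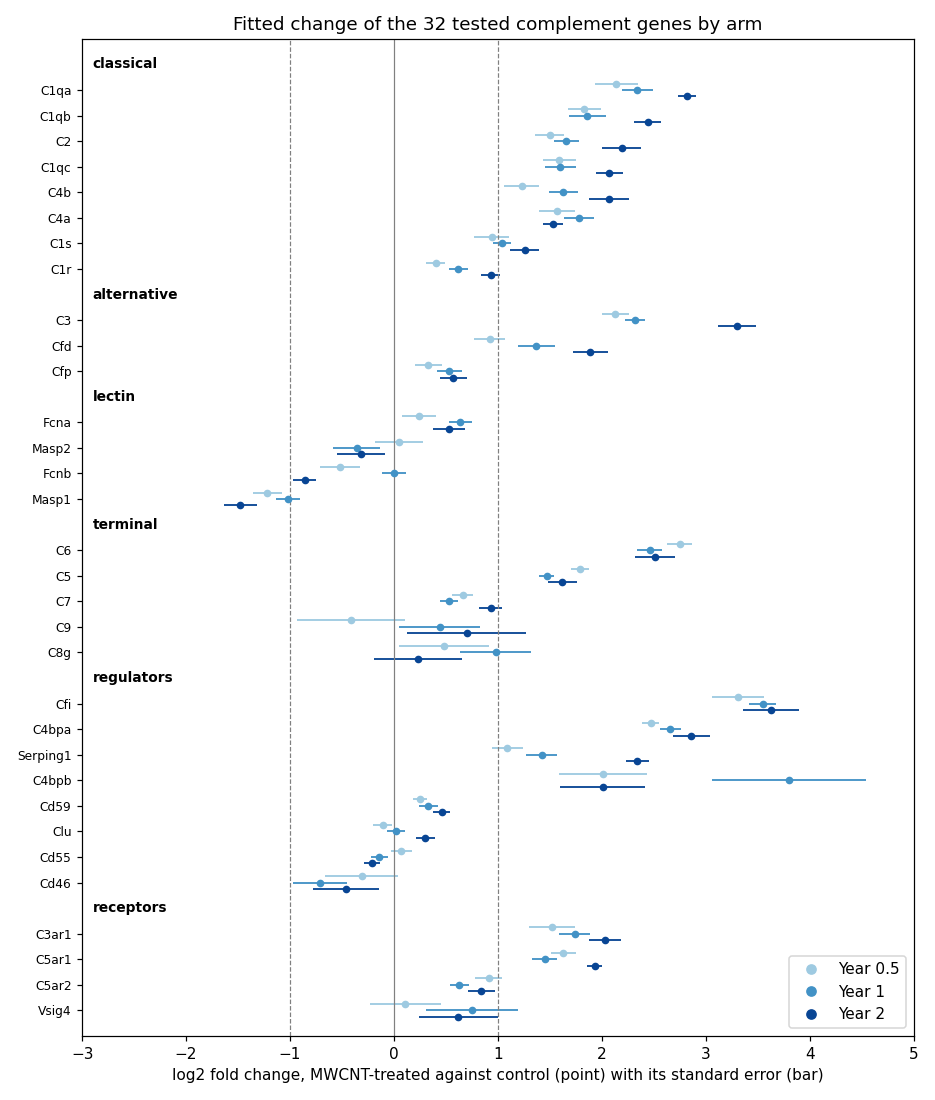
Log2 fold change of MWCNT-treated against control rats (points, horizontal axis) with its standard error (bars) for the 32 tested complement genes, grouped by arm, at Years 0.5, 1, and 2 (light to dark); dashed lines mark 1 and -1. Classical genes other than *C1r* reached 1.26 to 2.82 at Year 2, and the lectin gene *Masp1* lay at -1.48.

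The summed TPM of the 34 genes was 3080 ± 232, 3250 ± 154, and 2840 ± 226 (SD, n = 3) in control rats at Years 0.5, 1, and 2. The treated rats reached 5040 ± 447, 5690 ± 308, and 7050 ± 531. The rise was spread unevenly over the arms. At Year 2, the classical genes summed to 727 ± 96.9 TPM in control and 2440 ± 246 TPM in MWCNT-treated rats, the alternative genes to 143 ± 24.9 and 799 ± 109 TPM, and the receptors to 65.5 ± 4.61 and 176 ± 4.71 TPM. Most of the alternative sum was *C3*, shared by all arms, at 77.8 TPM in control and 656 TPM in MWCNT-treated rats. Factor B, whose symbol matched no entry, was not in it. The lectin sum moved the other way at Year 2, from 94.5 ± 7.38 TPM in control to 54.5 ± 1.17 TPM in MWCNT-treated rats. Its fall lay mainly in *Fcnb* (mean 61.5 and 29.2 TPM) and *Masp1* (14.2 and 4.37 TPM), whereas *Fcna* was higher after MWCNT (14.6 and 18.1 TPM). In the control lung, regulators made up most of the total, with 1600 ± 67.6 TPM at Year 2, and *Cd59*, *Clu*, and *Serping1* were the 3 most abundant members.

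**Figure D2:**
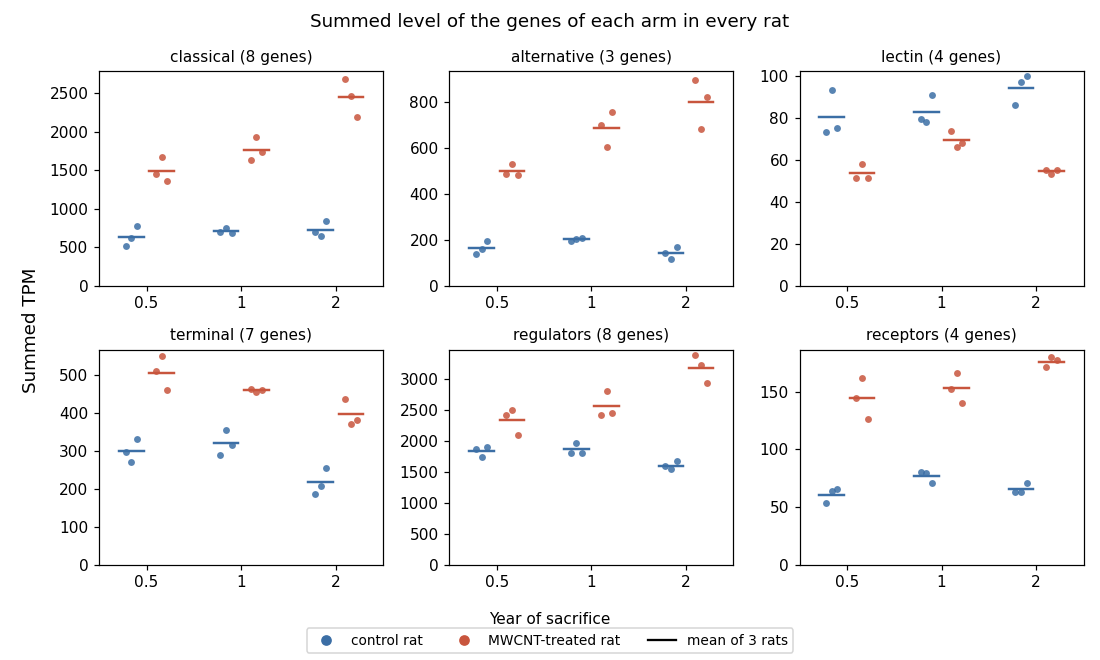
Summed TPM of the genes of each arm in every rat (points) with the mean of 3 rats (lines), by year of sacrifice. The control and MWCNT-treated rats do not overlap at the same year in any panel. Only the lectin sum is lower in the MWCNT-treated rats, at 53.2–55.2 TPM against 86.2–100 TPM at Year 2. Its groups lie closer at Year 1, at 66.1–73.8 against 78.2–90.7 TPM. There the log2 fold changes fitted to the counts were -1.02 for *Masp1*, -0.36 for *Masp2*, 0 for *Fcnb*, and 0.64 for *Fcna*.

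C1q is built from 3 chains, encoded side by side by *C1qa*, *C1qc*, and *C1qb* at chr5:155246447-155264143 of Rnor_6.0, and it recognizes antibody complexes, dying cells, and foreign surfaces. In control rats, *C1qa* was measured at 45.2, 70.9, and 85.5 TPM at Year 0.5, 77.8, 73.2, and 80.6 at Year 1, and 87.2, 83.2, and 96.5 at Year 2. The MWCNT-treated rats stood at 262, 311, and 225 TPM at Year 0.5, 285, 393, and 314 at Year 1, and 566, 550, and 507 at Year 2. Every MWCNT-treated rat lay above every control rat, with log2 fold changes of 2.14, 2.34, and 2.82 (SE 0.21, 0.15, and 0.09) and FDR of 0.000119, 8.19e-06, and 1.56e-07, a 4.4, 5.08, and 7.07-fold rise in turn.

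*C1qb* was at 47.2, 55.7, and 74.3 TPM at Year 0.5, 61.9, 78.5, and 65.8 at Year 1, and 66.4, 63.6, and 74.3 at Year 2 in the controls and at 180, 217, and 171 TPM at Year 0.5, 166, 260, and 202 at Year 1, and 359, 331, and 262 at Year 2 after MWCNT. *C1qc* was at 60.7, 71.9, and 95.6 TPM at Year 0.5, 98.9, 98.7, and 86.2 at Year 1, and 95.7, 90.8, and 116 at Year 2 in the controls and at 193, 235, and 192 TPM at Year 0.5, 202, 285, and 239 at Year 1, and 397, 393, and 302 at Year 2 after MWCNT. Neither gene overlapped between the groups at any time point. The log2 fold changes were 1.83, 1.86, and 2.44 for *C1qb* and 1.59, 1.6, and 2.07 for *C1qc*, smaller than those of *C1qa*, with FDR no higher than 0.000118.

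The chains thus did not rise in proportion on the TPM scale. The ratio of *C1qc* to *C1qa* was 1.16 ± 0.168, 1.23 ± 0.144, and 1.13 ± 0.0638 (SD, n = 3) in control rats at Years 0.5, 1, and 2. After MWCNT it was 0.781 ± 0.064, 0.732 ± 0.0272, and 0.671 ± 0.0652. No rat of one treatment reached the range of the other, since the lowest control ratio was 1.01 and the highest after MWCNT was 0.855. The ratio of *C1qb* to *C1qa* was 0.517–0.759 in MWCNT-treated and 0.762–1.07 in control rats.

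Beside them, the macrophage marker *Cd68*, a lysosomal glycoprotein, rose with log2 fold changes of 2.44, 2.5, and 3.03. The median of the 10 macrophage markers was 1.67, 1.5, and 1.86, below the values of *C1qa*. The lowest were those of *Csf1r* (0.34, 0.34, and 0.55) and the highest those of *Marco* (6.22, 4.99, and 4.64). The ratio below therefore holds for *Cd68* alone and not for macrophage markers in general. The ratio of *C1qa* to *Cd68* was 0.775 ± 0.23, 0.767 ± 0.0888, and 1.05 ± 0.104 in control rats and 0.626 ± 0.0519, 0.682 ± 0.0431, and 0.895 ± 0.0305 after MWCNT, again by year. The mean ratio was lower after MWCNT at each time point, and the ranges overlapped at Years 0.5 and 1 and were apart at Year 2.

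*C1r* and *C1s* encode the proteases that C1q carries. *C1s* was at 57.4, 62.1, and 97 TPM at Year 0.5, 76, 83.6, and 77 at Year 1, and 71, 66.1, and 97.7 at Year 2 in control rats and at 125, 134, and 116 TPM at Year 0.5, 127, 147, and 138 at Year 1, and 171, 165, and 146 at Year 2 in MWCNT-treated rats. The groups did not overlap, and the log2 fold changes were 0.94, 1.04, and 1.26 (SE 0.17, 0.09, and 0.14, FDR 0.00289, 5.92e-05, and 8.75e-05), so *C1s* was not called at Year 0.5. Without rat 3 of either group it passed the limit there, at 1.21 (control rat left out) and 1.02, and without MWCNT rat 2 at Year 1 it was 0.94. *C1r*, at 122–176 TPM in control and 175–226 TPM in MWCNT-treated rats, reached log2 fold changes of 0.4, 0.62, and 0.93 (FDR 0.00908, 0.000809, and 4.04e-05), below the limit of 1 at every time point, although it was 1.01 at Year 2 without MWCNT rat 3. The ratio of *C1qa* to *C1r* rose from 0.438 ± 0.0937, 0.512 ± 0.0458, and 0.682 ± 0.009 in control rats to 1.46 ± 0.208, 1.67 ± 0.179, and 2.53 ± 0.0552 in MWCNT-treated rats.

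*C2* encodes the protease subunit of the classical convertase. It was at 81.7, 89.9, and 109 TPM at Year 0.5, 94.8, 106, and 101 at Year 1, and 77, 59.7, and 103 at Year 2 in control rats and at 234, 276, and 204 TPM at Year 0.5, 249, 307, and 249 at Year 1, and 359, 291, and 285 at Year 2 in MWCNT-treated rats, with no overlap. Log2 fold changes of 1.5, 1.66, and 2.19 were fitted (SE 0.14, 0.12, and 0.19, FDR 7.5e-05, 1.76e-05, and 2.01e-05).

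The entry of *C2* (chr20:4542340-4561152, minus strand) lies almost wholly within that of *Cfb_1* (chr20:4536203-4561066, minus strand), an entry for the factor B gene that the symbol rule did not match and that was added after its values were seen. *Cfb_1* was at 197, 217, and 260 TPM at Year 0.5, 250, 248, and 248 at Year 1, and 178, 164, and 199 at Year 2 in control rats and at 527, 557, and 503 TPM at Year 0.5, 663, 675, and 691 at Year 1, and 807, 535, and 623 at Year 2 in MWCNT-treated rats. Its log2 fold changes were 1.38, 1.68, and 2.08 (SE 0.1, 0.08, and 0.16, FDR 2.8e-05, 2.7e-06, and 1.1e-05). Because reads of overlapping entries may be split between them, the counts of *C2* and *Cfb_1* were also summed, which gave 1.40, 1.68, and 2.10. A second entry, *Cfb_2*, had no count in any rat.

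*C4a* and *C4b* encode the C4 proteins, which carry the activating cleavage from C1s to C2. *C4a* (chr20:2651599-2678141) was at 42.5, 72.6, and 66.4 TPM at Year 0.5, 70.8, 51.9, and 62.8 at Year 1, and between 102 and 111 at Year 2 in control rats and at 153, 167, and 169 TPM at Year 0.5, 214, 149, and 181 at Year 1, and 275, 277, and 232 at Year 2 in MWCNT-treated rats. *C4b* (chr20:4302344-4316715) was at 48.2, 55.9, and 71.4 TPM at Year 0.5, 66.3, 95.7, and 65.5 at Year 1, and 64.3, 63.5, and 98.6 at Year 2 in control rats and at 118, 149, and 105 TPM at Year 0.5, 206, 180, and 211 at Year 1, and 328, 228, and 258 at Year 2 in MWCNT-treated rats. All MWCNT-treated rats were above all control rats of their time point for both genes.

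*C4a* changed by 1.57, 1.78, and 1.53 on the log2 scale (FDR 0.000188, 3.46e-05, and 3.62e-06), and *C4b* by 1.23, 1.63, and 2.07 (FDR 0.00056, 4.11e-05, and 3.38e-05). How reads shared by these near-identical genes were assigned is not given in the sources used here, so their separate values are uncertain, and RefSeq lists the name *C4b* as a synonym of *C4a*. Summed over both genes, the log2 fold changes were 1.42, 1.70, and 1.78. The ratio of *C4b* to *C4a* was 0.62–1.85 in control and 0.622–1.21 in MWCNT-treated rats.

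*C3* encodes the component at which all arms meet. In the control rats it was at 88.5, 96.8, and 130 TPM at Year 0.5, 126, 136, and 145 at Year 1, and 72.1, 65.8, and 95.5 at Year 2. In the MWCNT-treated rats it was at 402, 438, and 405 TPM at Year 0.5, 610, 478, and 646 at Year 1, and 749, 536, and 684 at Year 2. At Year 2 the lowest MWCNT-treated rat stood far above the highest control rat, and the mean control level was the lowest of the 3 time points.

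The log2 fold changes of *C3* were 2.13 (SE 0.13, FDR 1.2e-05), 2.32 (SE 0.1, FDR 2.25e-06), and 3.3 (SE 0.18, FDR 1.64e-06), or 4.37, 5, and 9.83-fold. *C3* had the largest Year 2 log2 fold change of the tested members after *Cfi*. The ratio of *C3* to *C5*, the component that follows it, was 3.66 ± 0.528, 3.67 ± 0.171, and 3.25 ± 0.503 in control rats and 4.62 ± 0.101, 6.61 ± 0.613, and 10.3 ± 0.585 after MWCNT at Years 0.5, 1, and 2, on the TPM scale. Markers of alveolar type 2 cells were also higher in MWCNT-treated rats. Their 6 genes summed to 27300–36000 TPM in control and 50700–60300 TPM in MWCNT-treated rats, with 2, 2, and 4 of 6 called higher. The mean sum after MWCNT was 56900, 59300, and 53200 TPM at Years 0.5, 1, and 2, where *C3* averaged 415, 578, and 656 TPM. The part of these cells in the rise of *C3* was not tested.

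*Cfd* encodes factor D, the protease that activates factor B, and is also known as an adipocyte product. It was at 21.5, 26.2, and 33 TPM at Year 0.5, 28.3, 31.6, and 28.9 at Year 1, and 31.1, 22.4, and 39.3 at Year 2 in control rats and at 45.5, 50.2, and 42.1 TPM at Year 0.5, 49.5, 79.2, and 65 at Year 1, and 99.9, 102, and 93.9 at Year 2 in MWCNT-treated rats. The groups did not overlap, and the log2 fold changes were 0.92, 1.37, and 1.89 (SE 0.15, 0.18, and 0.17, FDR 0.00167, 0.000489, and 2.5e-05), below the limit at Year 0.5. Without rat 3 of the controls or of the MWCNT-treated rats, the Year 0.5 value was 1.09 or 1.01. Adipocyte markers summed to 1.63–7.61 TPM over all rats. Only 3, 2, and 2 of the 5 passed the filter on low counts at Years 0.5, 1, and 2, and none of those was called higher. Of these markers, *Plin4* was called lower at Years 0.5 and 1, with -1.33 and -1.43, and the part of adipocytes in the values of *Cfd* was not tested. *Cfp*, the properdin gene, was at 27–40.7 TPM in control and 34–47.5 TPM in MWCNT-treated rats, with log2 fold changes of 0.33, 0.53, and 0.57 (FDR 0.0754, 0.0066, and 0.00581) and no DEG call.

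**Figure D3:**
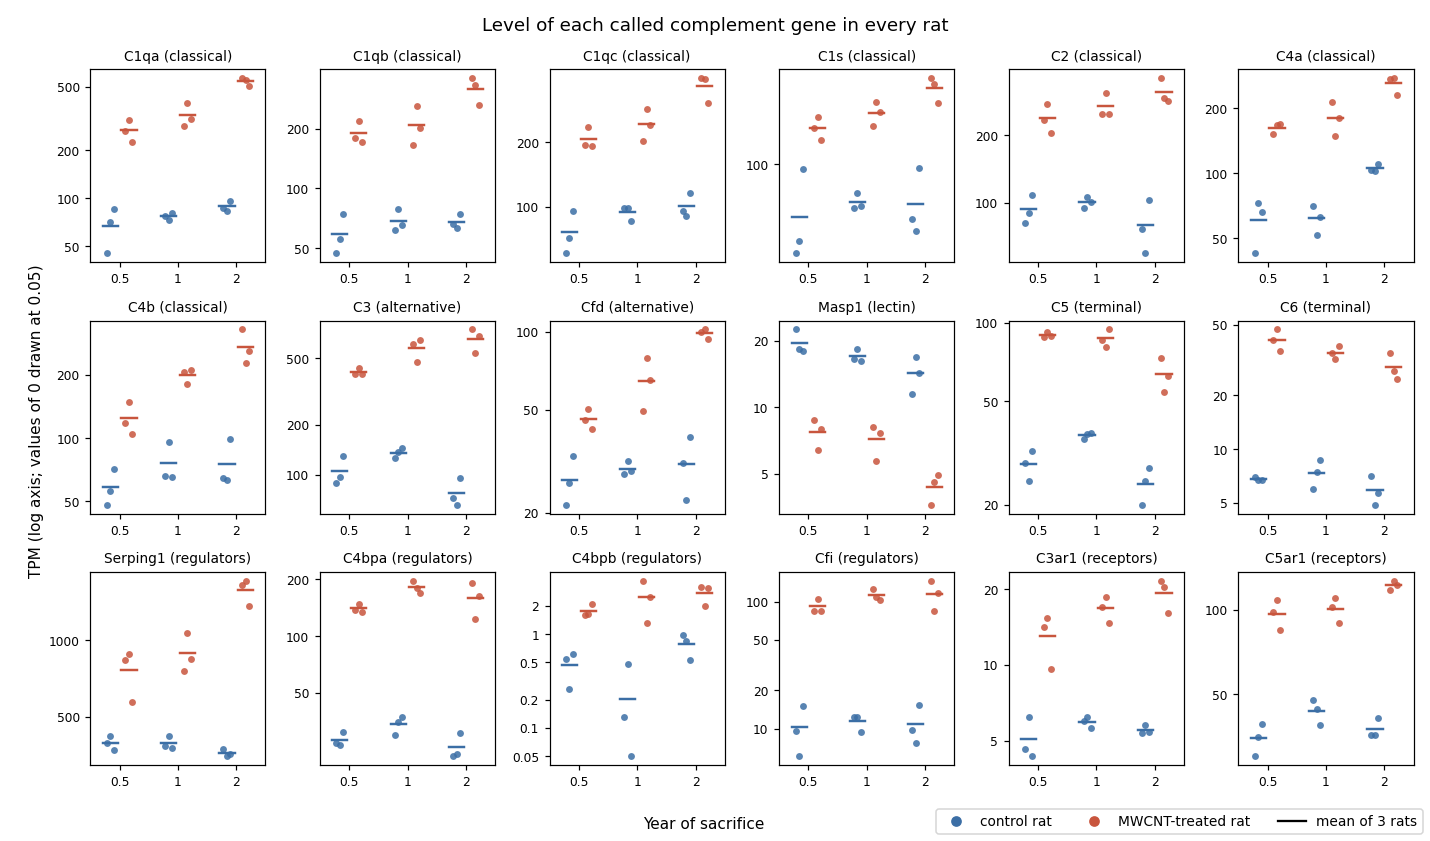
TPM (log axis) of the 18 complement genes called at any time point in every control rat (blue) and MWCNT-treated rat (red), with the mean of 3 rats (lines), by year of sacrifice. In each panel the groups are apart at every time point, MWCNT-treated rats being higher except for *Masp1*, at 3.61–4.93 against 11.5–16.8 TPM at Year 2.

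The lectin arm held the only member called lower. *Masp1*, which encodes a protease bound to collectins and ficolins, was at 22.5, 18.4, and 17.9 TPM at Year 0.5, 16.5, 18.4, and 16.2 at Year 1, and 11.5, 16.8, and 14.3 at Year 2 in control rats. In MWCNT-treated rats it was at 8.72, 6.37, and 7.93 TPM at Year 0.5, 8.15, 5.68, and 7.61 at Year 1, and 3.61, 4.56, and 4.93 at Year 2. Each MWCNT-treated rat was below each control rat, and the log2 fold changes were -1.22, -1.02, and -1.48 (SE 0.14, 0.12, and 0.16, FDR 0.000226, 0.000299, and 7.72e-05). At Year 1 the change lay just past the limit, and without rat 2 of the controls or rat 2 of the MWCNT-treated rats it was -0.98 or -0.92 and was no longer called.

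The other lectin genes were not called. *Masp2*, a related protease, was at 2.07–4.94 TPM over all rats, with log2 fold changes of 0.05, -0.36, and -0.32. The ficolin gene *Fcna* was at 12.2–20.3 TPM, with 0.24, 0.64, and 0.53, and passed the FDR but not the limit at Years 1 and 2. *Fcnb*, the ficolin gene of myeloid cells, was at 57.3, 63, and 64.4 TPM in control rats and at 32, 25.5, and 30 TPM in MWCNT-treated rats at Year 2. This difference, -0.86 (SE 0.11, FDR 0.000162), also missed the limit. At Year 0.5 it was at 34.4, 55.9, and 36.7 TPM in control and 25.1, 30.2, and 24.6 TPM in MWCNT-treated rats, apart in TPM but not past the FDR, at -0.52 (SE 0.19, FDR 0.0571). At Year 1 the groups overlapped, with a log2 fold change of 0.

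The terminal genes *C5* and *C6* rose, the former encoding the source of the C5a fragment and the latter a component of the membrane attack complex. *C5* was at 29, 24.7, and 32.3 TPM at Year 0.5, 35.8, 37.3, and 37.8 at Year 1, and 20, 24.6, and 27.6 at Year 2 in control rats and at 88, 92.5, and 88.9 TPM at Year 0.5, 86.2, 80.7, and 94.5 at Year 1, and 73.6, 54.5, and 62.3 at Year 2 in MWCNT-treated rats. *C6* was at 6.97, 6.67, and 6.67 TPM at Year 0.5, 6.01, 7.47, and 8.69 at Year 1, and 7.1, 4.87, and 5.66 at Year 2 in control rats and at 41.1, 47, and 35.4 TPM at Year 0.5, 34.4, 32.2, and 37.9 at Year 1, and 34.6, 27.3, and 24.8 at Year 2 in MWCNT-treated rats. Neither gene overlapped between the groups. They changed by 1.79, 1.47, and 1.62 (FDR 5.51e-06, 2.7e-06, and 1.72e-05) for *C5* and 2.75, 2.46, and 2.51 (FDR 3.62e-06, 3.03e-06, and 8.73e-06) for *C6* on the log2 scale, and *C6* was thus among the most changed members while remaining under 50 TPM.

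*C7*, which anchors the complex to membranes, was the most abundant terminal gene, at 157–306 TPM in control and 283–406 TPM in MWCNT-treated rats. Its log2 fold changes were 0.66, 0.53, and 0.93 (FDR 0.00103, 0.00209, and 0.000153), below the limit except for 1.05 at Year 2 without control rat 3. The C8 and *C9* genes that complete the complex were scarce. *C8a* had at most 1 count, *C8b* had none in any rat, *C8g* was at 1.23–5.54 TPM with 0.48, 0.98, and 0.23, and *C9* was at 0.3–2.32 TPM with -0.41, 0.44, and 0.7, neither being called. Without control rat 3 at Year 2, which had 38 counts against 13 and 6 in the others, the log2 fold change of *C9* was 1.73 (FDR 0.0158). Most of the plasma pool of C8 and C9 is known to come from liver, and liver markers were near 0 here. The 6 hepatocyte genes found summed to at most 2.59 TPM, none passed the filter at any time point, and the albumin gene *Alb* had at most 7 counts in a rat.

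Among the regulators, 4 of 8 were called higher at each time point, where 6.07%, 6.13%, and 8.17% of all genes were. By FDR alone, 5, 5, and 6 of the 8 were higher, where 38.8%, 41.2%, and 49.2% of all genes changed in either direction. *Serping1* encodes C1 inhibitor, which inactivates C1r, C1s, and the MASP proteases. It was at 393, 421, and 371 TPM at Year 0.5, 385, 420, and 376 at Year 1, and 373, 350, and 356 at Year 2 in control rats and at 837, 878, and 571 TPM at Year 0.5, 758, 1070, and 845 at Year 1, and 1640, 1710, and 1360 at Year 2 in MWCNT-treated rats. The groups did not overlap. *Serping1* reached log2 fold changes of 1.09 (SE 0.15, FDR 0.000699), 1.42 (SE 0.15, FDR 0.000133), and 2.34 (SE 0.11, FDR 9.67e-07). The Year 0.5 value was 0.98 without MWCNT rat 2. At Year 2, *Serping1* was the most abundant of the 34 genes in MWCNT-treated rats, at 1570 ± 186 TPM (SD, n = 3), where *Cd59* was the most abundant in control rats, at 596 ± 54.9 TPM.

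*C4bpa* and *C4bpb* encode the chains of C4b-binding protein, which dismantles the classical convertase as a cofactor of factor I. *C4bpa* was at 27, 26.5, and 31 TPM at Year 0.5, 29.8, 34.9, and 37 at Year 1, and 23, 23.5, and 30.7 at Year 2 in control rats and at 138, 149, and 135 TPM at Year 0.5, 197, 180, and 169 at Year 1, and 192, 124, and 164 at Year 2 in MWCNT-treated rats, without overlap. Its log2 fold changes were 2.47, 2.66, and 2.86 (SE 0.08, 0.1, and 0.18, FDR 1.41e-06, 1.05e-06, and 3.47e-06). *C4bpb* was far scarcer, with 5, 2, and 5 counts in control and 14, 20, and 19 counts in MWCNT-treated rats at Year 0.5.

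At Year 1, *C4bpb* had 1, 4, and 0 counts in control and 34, 14, and 23 counts in MWCNT-treated rats, and at Year 2 it had 8, 7, and 4 counts against 28, 20, and 29. In TPM, the control rats were at 0.54, 0.259, and 0.608 TPM at Year 0.5, 0.13, 0.483, and 0 at Year 1, and 0.977, 0.837, and 0.527 at Year 2, and the MWCNT-treated rats were at 1.58, 1.64, and 2.1 TPM at Year 0.5, 3.71, 1.32, and 2.5 at Year 1, and 3.18, 2, and 3.13 at Year 2. The groups were apart at each time point. The fitted log2 fold changes were 2.01, 3.8, and 2.01 (SE 0.42, 0.74, and 0.41, FDR 0.00556, 0.00366, and 0.00342). With so few control reads their size is imprecise, and at Year 1 the value was 5.33 without control rat 2 and 3.16 without control rat 3.

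*Cfi* encodes factor I, the protease that cleaves deposited C3b and C4b. It was at 9.49, 6.06, and 15.1 TPM at Year 0.5, 12.4, 12.4, and 9.45 at Year 1, and 9.74, 7.75, and 15.2 at Year 2 in control rats. In the MWCNT-treated rats it was at 85, 105, and 84.4 TPM at Year 0.5, 126, 109, and 103 at Year 1, and 146, 83.6, and 116 at Year 2. The lowest MWCNT-treated value of any time point was 83.6 TPM and the highest control value was 15.2 TPM. The log2 fold changes of 3.31, 3.55, and 3.63 (SE 0.25, 0.13, and 0.27, FDR 2.93e-05, 1.05e-06, and 8.44e-06), or 9.92, 11.7, and 12.3-fold, were the largest among the members at Years 0.5 and 2. The ratio of *C3* to *Cfi* was 11.3 ± 4.05, 12.2 ± 2.81, and 7.39 ± 1.1 in control and 4.56 ± 0.357, 5.16 ± 0.984, and 5.83 ± 0.641 in MWCNT-treated rats. The ratio was lower without overlap at Years 0.5 and 1, and at Year 2 the ranges met, at 6.28–8.48 and 5.14–6.42.

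Of the members, the regulators that sit on host cells, *Cd59*, *Cd55*, and *Cd46*, were not called at any time point. *Cd59*, the membrane inhibitor of the attack complex, was at 557–777 TPM in control and 687–846 TPM in MWCNT-treated rats, with log2 fold changes of 0.25, 0.33, and 0.46 and FDR of 0.0178, 0.0176, and 0.00161. *Cd55*, which speeds the decay of convertases, was at 27.7–38.1 TPM in control and 20.4–35.3 TPM in MWCNT-treated rats, with 0.07, -0.14, and -0.21. *Cd46*, a cofactor for factor I, had 20–55 counts per rat, and its log2 fold changes were -0.31, -0.71, and -0.46.

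*Clu*, a fluid-phase inhibitor of the attack complex, was at 549–730 TPM in control and 513–652 TPM in MWCNT-treated rats. Its direction depended on the scale. On the TPM scale all MWCNT-treated rats were below all control rats at Years 0.5 and 1, whereas the log2 fold changes with TMM normalization were -0.11, 0.02, and 0.3, of which that at Year 2 passed the FDR (0.3 (SE 0.09, FDR 0.0238)). With library size only, the Year 1 value was -0.11.

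The receptors for C3a and C5a rose. *C3ar1* was at 4.63, 6.2, and 4.34 TPM at Year 0.5, 6, 6.23, and 5.64 at Year 1, and 5.37, 5.78, and 5.43 at Year 2 in control rats and at 14.2, 15.3, and 9.62 TPM at Year 0.5, 17, 18.6, and 14.7 at Year 1, and 21.6, 20.4, and 16.1 at Year 2 in MWCNT-treated rats. *C5ar1* was at 30, 35.1, and 39.1 TPM at Year 0.5, 47.6, 44.2, and 38.9 at Year 1, and 35.6, 35.7, and 41.1 at Year 2 in control rats and at 97.9, 108, and 84.9 TPM at Year 0.5, 102, 110, and 89.7 at Year 1, and 118, 127, and 123 at Year 2 in MWCNT-treated rats. Both were higher in every MWCNT-treated rat than in any control rat of the same time point. The log2 fold changes were 1.52, 1.74, and 2.03 (FDR 0.000879, 3.94e-05, and 9.22e-06) for *C3ar1* and 1.63, 1.45, and 1.93 (FDR 2.8e-05, 4.28e-05, and 2.98e-07) for *C5ar1*.

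*C5ar2* encodes the second receptor for C5a, which does not couple to G proteins. It was at 16–24 TPM in control and 25.5–35.7 TPM in MWCNT-treated rats and did not overlap at any time point. Its log2 fold changes of 0.91, 0.63, and 0.84 (FDR 9e-04, 0.000857, and 0.00073) stayed below the limit. The ratio of *C5ar1* to *C5ar2* was 1.87 ± 0.0475, 1.87 ± 0.191, and 2.02 ± 0.174 in control rats and 3.08 ± 0.238, 3.31 ± 0.536, and 4.34 ± 0.653 in MWCNT-treated rats, with the highest control ratio at 2.19 and the lowest MWCNT ratio at 2.74.

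*Vsig4*, a receptor of resident macrophages for C3 fragments, was at 1.34–5.29 TPM in control and 1.92–9.04 TPM in MWCNT-treated rats. The groups overlapped at each time point, and the log2 fold changes were 0.11, 0.75, and 0.62 (FDR 0.811, 0.197, and 0.208). Rat 2 of the MWCNT-treated rats at Year 1 had 122 counts, where the others of its group had 45 and 33, and without it the value was 0.03.

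Whether the treatment effect changed with time was tested directly, as the difference of the log2 fold changes between time points in one model of all 18 rats. Between Year 0.5 and Year 2, *C3* (1.17 (SE 0.22, FDR 0.0153)) and *Serping1* (1.26 (SE 0.22, FDR 0.0115)) passed an FDR of 0.05, 2 of 32 members where 1.31% of all 14843 genes did. At an unadjusted p below 0.05, 10 members (31.2%) and 13.8% of all genes passed. From Year 0.5 to Year 2, *C3* changed by 0.75 (SE 0.15, FDR 0.00384) on the log2 scale in MWCNT-treated rats and by -0.43 (SE 0.15, FDR 0.104) in control rats. *Serping1* changed by 1.13 (SE 0.16, FDR 0.000217) and -0.13 (SE 0.16, FDR 0.67).

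The *C3* difference was 1.12 (FDR 0.0555) without rat 3 of the MWCNT-treated rats at Year 0.5 and 1.05 (FDR 0.0538) without rat 1 of those at Year 2. In order of FDR, *C1r* (0.53 (SE 0.14, FDR 0.0657)), *Cfd* (0.97 (SE 0.28, FDR 0.0953)), *Clu* (0.41 (SE 0.13, FDR 0.156)), and *C4b* (0.84 (SE 0.28, FDR 0.167)) followed without passing. *C1qa* had 0.69 (SE 0.26, FDR 0.224), *C5* had -0.16 (SE 0.16, FDR 0.708), and *C6* had -0.23 (SE 0.23, FDR 0.716). Between Year 0.5 and Year 1, edgeR called 0 of the 32 members and 0 of 14843 genes. At an unadjusted p below 0.05 there was 1 member (3.12%), against 8.49% of all genes, and no other tool was run for the interactions.

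**Figure D4:**
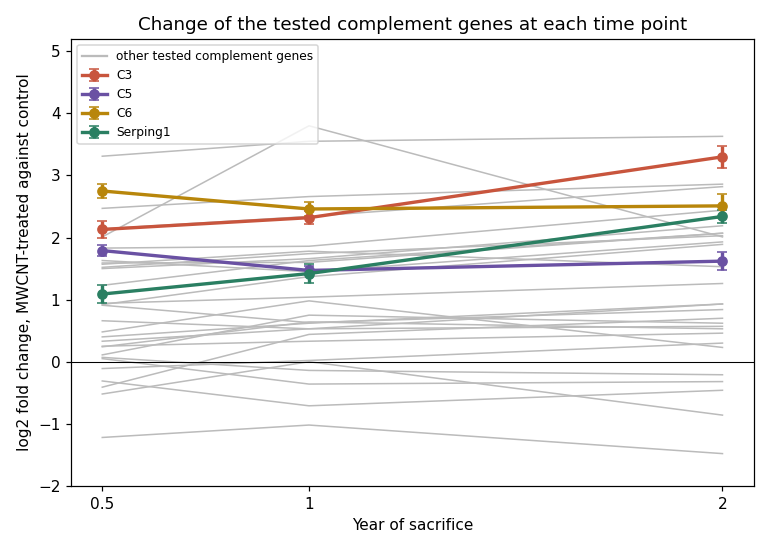
Log2 fold change of MWCNT-treated against control rats at each year of sacrifice for *C3*, *Serping1*, *C5*, and *C6* (colored, bars are standard errors) and for the other tested complement genes (gray). *C3* went from 2.13 to 3.30 and *Serping1* from 1.09 to 2.34 between Years 0.5 and 2, while *C5* was at 1.79 and 1.62 and *C6* at 2.75 and 2.51.

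From Year 0.5 to Year 2, the control rats showed no member past the DEG criterion with edgeR, where 0.633% of all genes were called. By FDR alone, *C4a* (0.81 (SE 0.16, FDR 0.00948)) and *Fcnb* (0.55 (SE 0.16, FDR 0.0479)) were higher and *C7* (-0.52 (SE 0.11, FDR 0.0138)) lower, 3 of 32 against 6.65% of all genes, and 11 members (34.4%) had an unadjusted p below 0.05, against 24% of all genes.

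In MWCNT-treated rats over the same interval, 4 of 32 members rose past the criterion, against 2.34% of all genes. They were *C4b* (1.21 (SE 0.2, FDR 0.000714)), *Cfd* (1.18 (SE 0.19, FDR 0.000557)), *Serping1* (1.13 (SE 0.16, FDR 0.000217)), and *C1qa* (1.11 (SE 0.18, FDR 0.000562)). Without rat 3 of the MWCNT-treated rats at Year 0.5, only *C4b* (1.08) and *Cfd* (1.10) were called. By FDR alone 14 members changed, against 13.5% of all genes, and among them *C5* (-0.41), *Cd55* (-0.53), and *Masp1* (-0.72) fell.

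Beyond the members, 21 other genes of complement were examined, including its leukocyte integrins and collectins. Of the 20 found, 15 were tested, and 3, 5, and 6 of the 15 were called at Years 0.5, 1, and 2, or 20%, 33.3%, and 40% against 9.1%, 10.2%, and 16.4% of all genes. Those called were 3 higher and none lower, 3 higher and 2 lower, and 4 higher and 2 lower. *Itgam*, *Itgax*, and *Itgb2*, which encode the chains of complement receptors 3 and 4, were higher at all time points. Their log2 fold changes were 2.36, 2.3, and 2.46, 1.88, 1.45, and 1.49, and 1.36, 1.33, and 2.01; the entry of *Itgax* lies within the span of *Itgam*, and *Itgax* was also among the macrophage markers.

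*Cr2*, the complement receptor of B cells, was lower, at -0.96, -1.08, and -2.03, and was called at Years 1 and 2. B cell markers moved with it, with summed TPM of 43.1–91.1 in control and 12.9–42.4 in MWCNT-treated rats and 3, 0, and 2 of them called lower, and their part in the change of *Cr2* was not tested. *Csmd1*, a membrane regulator at under 0.55 TPM, was lower at Years 1 and 2, with -0.33, -1.06, and -1.22. Another 9 tested genes were not called at any time point, with *Vtn*, the vitronectin gene, closest to the limit at -1 (FDR 0.000288) at Year 2.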

How the data were processed

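Per the labels, lung RNA of 18 rats was sequenced (NEBNext Ultra II libraries). The authors mapped reads with CLC Genomics Workbench and deposited whole-number read counts per gene, without normalization, together with TPM values scaled for gene length. The submitters' processing notes name Rnor_6.0 (rn6); strand and the handling of reads mapping to several places are not given in the sources used here. Deposited RPKM, TMM-adjusted CPM, and the authors' comparison columns (fold changes, p-values, and FDR) were not used.

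At each time point the counts of its 6 rats entered edgeR 4.0.16 in R 4.3.3 (filterByExpr, minimum count 10, minimum total 15; TMM; quasi-likelihood test; Benjamini-Hochberg over all genes tested). A standard error is the absolute log2 fold change over the root of F. Interactions (FDR below 0.05) and effects of time were tested in one model of 6 group means. The scripts were tested on simulated data. Every rat was a separate animal. Alternatives were DESeq2 1.42.0, other filters and scalings, limma 3.58.1 on log2(TPM + 1), the 18-rat model, the replicate number as a block, FDR alone, and each rat left out; summed counts of *C4a* with *C4b* and of *C2* with *Cfb_1* were added after seeing the data. Motifs were searched with Python 3.11.15 and windows aligned with Biopython 1.88. The members and lists were chosen with earlier results of these data known. Genes named are all members, other complement genes called at any time point, except 1 that is not reported here (*Vtn* and *Cfb_1* were added after their values were seen), and markers standing beside a result.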

Additional observations from a re-analysis of the deposited data

Results flagged for a closer look

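The treatment effect differed between time points for a pair of members, by the test of the difference itself. For *C3* the log2 fold change was 1.17 higher at Year 2 than at Year 0.5 (SE 0.22, FDR 0.0153), and for *Serping1* it was 1.26 higher (SE 0.22, FDR 0.0115), both from edgeR's quasi-likelihood test in the model of 18 rats. All 3 MWCNT-treated rats at Year 2 were above all 3 at Year 0.5 for both genes in TPM, at 536–749 against 402–438 for *C3* and at 1360–1710 against 571–878 for *Serping1*. Part of the *C3* difference lay in the control rats, where *C3* changed by -0.43 (FDR 0.104) on the log2 scale. The *C3* difference missed the FDR without MWCNT Year 0.5 rat 3 (0.0555) or MWCNT Year 2 rat 1 (0.0538).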

How the results depend on the processing

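The counts of members called higher stayed within 1.5 times their value under DESeq2, the other filters, the other scalings, limma on log2(TPM + 1), the 18-rat model, and FDR alone, at 13–21, 16–24, and 16–24 for Years 0.5, 1, and 2. At Year 2, 2 members were lower with library size only, with limma, and with FDR alone, *Fcnb* being at -1.03 with library size only and at -1.05 with limma. By FDR alone, 3 members changed with time in control and 14 in MWCNT-treated rats. With library size only, the median log2 fold change of all genes tested shifted from -0.02, 0, and -0.01 to -0.12, -0.13, and -0.18 at Years 0.5, 1, and 2, and the share of calls that were higher from 66.7%, 60%, and 49.9% to 54.2%, 45.2%, and 37.5%. *Serping1* at Year 0.5 (0.99 and 0.92) and *C1s* at Year 1 (0.91 and 0.79) fell below the limit with library size only and with limma, as did *C4bpb* at Year 0.5 (0.92) with limma. Signs turned only in values that were not called in the report. With library size only and with limma these were *Masp2* (-0.05 and -0.08) and *Cd55* (-0.03 and -0.07) at Year 0.5 and *Clu* at Year 1 (-0.11 and -0.21), and with limma *C8g* at Year 2 (-0.04).

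Leaving out 1 rat gave 14–17, 16–17, and 17–19 members higher and 1–1, 0–1, and 1–1 lower, 1–4 interactions, and 2–5 members changed with time in MWCNT-treated rats. The 4 were *C1r*, *C3*, *Cfd*, and *Serping1*, without MWCNT Year 1 rat 2; the 1 came without MWCNT Year 0.5 rat 3 or MWCNT Year 2 rat 1. The ranges that crossed 0 were, at Year 0.5, *Masp2* -0.10 to 0.21, *C8g* -0.04 to 0.73, *C9* -0.83 to 0.16, *Cd46* -0.53 to 0.10, and *Vsig4* -0.15 to 0.32, at Year 1, *Fcnb* -0.11 to 0.12 and *Clu* -0.07 to 0.08, and at Year 2, *C8g* -0.24 to 0.46. Low counts limit *C8g*, *C9*, *C4bpb*, *Cd46*, and *Vsig4*.

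No pairing of the rats by replicate number was seen in the deviations from the group means. These correlated at -0.137 to 0.132 over 9 same-numbered pairs and at -0.191 to 0.181 over 18 others. Such correlations cannot exclude a pairing at 3 rats per group. With the replicate number as a block, 15, 17, and 17 members were higher and 1 lower at each time point. There were 2 and 0 interactions, and *Fcnb* at Year 1 was 0.01.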
